A study of Mus musculus with 6 samples.

Results

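The ETS family genes Erg, Fli1, Ets1, Ets2, Elk3, Etv2, Etv6, Elf1, Elf2 and Gabpa were examined in fibrotic mouse liver, in isolated sinusoidal endothelial cells (SECs). These 10 genes are the rows of the gene table with those names, of 41799 rows in all, and 8 of them were among the 15404 genes tested for a difference between groups. RNA was sequenced from 3 control libraries and 3 libraries with an endothelial knock-out of RBPj, which carries Notch signals to DNA. Mice of both groups were male, were injected with tamoxifen from 4 to 6 weeks of age at 2 mg per 20 g of body weight on each of 7 days, rested for 1 week, and then received the liver toxin CCl4, diluted to 15% in olive oil and dosed at 0.6 μl per g, 2 times a week for 6 weeks. They were 12 to 14 weeks old at isolation. Both groups therefore had tamoxifen and fibrosis, and no library of uninjured liver was analysed here. The strain is labelled C57BL/6 for the controls and knock-out replicate 1, and C57BL/7 and C57BL/8 for knock-out replicates 2 and 3. The Cre driver and the floxed allele are not given in the labels. Values by library are given for replicates 1, 2 and 3 in turn, the controls before the knock-outs.

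ETS proteins are transcription factors that share the ETS domain, which binds DNA around a GGAA core. In endothelium, Erg, Fli1 and Ets1 activate genes that define the lineage, such as those of VE-cadherin and the VEGF and angiopoietin receptors, and Etv2 starts that programme in the embryo. Elk3 and Etv6 are mainly repressors, and Elf1 and Elf2 belong to the same subfamily. Gabpa is the DNA-binding subunit of GABP, which acts on many housekeeping and mitochondrial genes.

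Total counts per library ran from 10372195 to 12326770, and 1 ribosomal RNA row took 0.864% to 6.62% of them. Rbpj had 172 to 174 counts in the control libraries and 99 to 154 in the knock-out libraries. Its level, in counts scaled to library size and composition (normalized CPM), was 16.5 ± 2.02 against 10.6 ± 2.13 (SD, n = 3 each), without overlap (edgeR log2 fold change -0.64 ± 0.19 SE, adjusted p = 0.187). Endothelial genes were high in every library. Cdh5, the gene of VE-cadherin, was at 1617, 1696 and 1275 normalized CPM in the controls and 2387, 2130 and 1990 in the knock-outs. The groups did not overlap (log2 fold change 0.50 ± 0.17 SE, edgeR adjusted p = 0.215), where 13.2% of all tested genes were apart and higher. The scavenger receptor gene Stab2 was at 2021 to 5077 normalized CPM over the 6 libraries. The summed level of 10 sinusoidal endothelial markers was 17297, 17305 and 11835 normalized CPM in the controls and 15723, 19582 and 16712 in the knock-outs. Markers of other cells differed between libraries. The sum of 8 neutrophil and monocyte markers was 15566 in control replicate 1 and 3517 in knock-out replicate 1 but 318 to 614 in the other libraries. The sum of 11 stellate cell markers was 2033, 2237 and 5413 in the controls and 610, 1553 and 1221 in the knock-outs, without overlap, and 10 of the 11 were lower in every knock-out library than in every control, against 11.7% of all tested genes, although none passed the adjusted threshold (smallest edgeR adjusted p = 0.191). In such bulk samples, fewer cells of a type and less RNA per cell cannot be told apart.

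The counts of Erg and Ets2 could not be read as levels. The table places Ets2, a target of ERK signalling, on an alternate contig, apart from the chromosomes, and lists it at 0 in all 6 libraries. RefSeq places the named genes of that contig, from Sim2 to Ets2, on chromosome 16 between 94085104 and 95721049 (GRCm38.p6). Erg, listed at 95359169 to 95586593 on that chromosome, lies inside this stretch. It had 7, 14 and 8 counts in the controls and 11, 30 and 14 in the knock-outs. All 5 protein-coding rows listed on chromosome 16 within the stretch were at or near 0. Over the 6 libraries Dyrk1a, which encodes a widely expressed kinase, and the potassium channel gene Kcnj15 had 0 counts, Pigp had 1, Ttc3 had 7 and Erg had 84. Reads were counted on the contig itself, where 3 of 8 protein-coding rows were at 0 (Ets2, Kcnj6 and Sim2) and Ripply3 had 361 counts, Hlcs 66 and LOC102641028 61. In the chromosome 16 stretch of the same length before the shared one, 8 of 11 protein-coding rows had over 100 counts, with a median of 584. In the stretch of the same length after it, 2 of 5 had over 100. RefSeq places genes of other alternate contigs inside that later stretch too (95831123 to 96228933 and 96587452 to 97171113). In the whole table, 384 of 576 protein-coding rows on alternate contigs were at 0 (66.7%), against 21.8% of those on primary chromosomes. How reads that align to more than one place were counted is not given in the sources used here, and the part of a second copy of this stretch in the low counts was not tested. The plot of counts around Erg shows the gap.

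**Figure D1:**
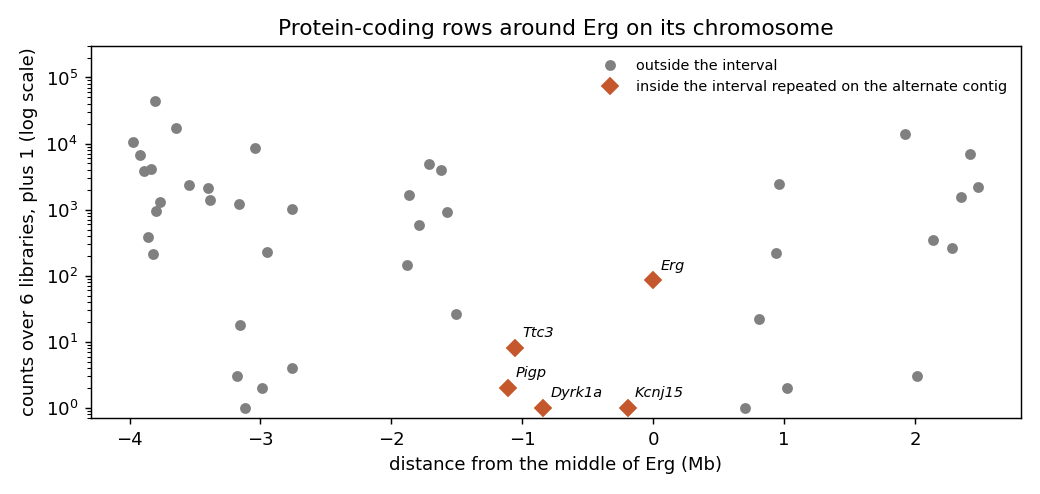
Counts over the 6 libraries, plus 1, on a log axis, for each protein-coding row of chromosome 16 against the distance of its middle from the middle of Erg in Mb. Diamonds are the 5 rows inside the stretch that RefSeq gives to the genes of the alternate contig, with 0 to 84 counts, and grey points are rows outside it. The grey point of Lca5l, with 0 counts, lies in a stretch given to another alternate contig.

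Etv2 (chromosome 7, 30633616 to 30636509) lies in no such stretch and had 0 counts in all 6 libraries. A count of 0 allows up to 3 counts, or 0.243 to 0.289 CPM depending on the library, a limit that covers counting error only. Low expression below this limit was not detectable at this depth.

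The other 7 genes were measured with 5838 to 77714 counts each over the 6 libraries. Levels of different genes are compared in RPKM, the authors' counts scaled to gene length and library total. Ets1 was highest, at 206, 241 and 169 RPKM in the controls and 229, 215 and 214 RPKM in the knock-outs. Elk3 followed at 96.8, 128 and 131 RPKM in the controls and 146, 183 and 188 RPKM in the knock-outs. Ets1 exceeded Elk3 within every library, although the range of Elk3 over the knock-out libraries reached into that of Ets1 over the controls. Elf1 had a mean level of 39.6 ± 2.44 RPKM in control and 43.2 ± 8.64 RPKM in knock-out SECs, and Fli1 of 29.1 ± 7.78 and 34.4 ± 2.97 RPKM (SD, n = 3 each). Elf2 was at 18.1 to 24.8 RPKM, Gabpa at 13.4 to 20.4 RPKM and Etv6 at 12.0 to 17.6 RPKM over the 6 libraries. Each neighbouring pair from Elf1 down to Etv6 overlapped in range over the libraries, but the order was nearly the same within each of them. Fli1 exceeded Elf2, Elf2 exceeded Gabpa and Gabpa exceeded Etv6 in 6 of 6 libraries, and Elf1 exceeded Fli1 in 5 of 6, with knock-out replicate 1 at 37.3 RPKM for both. Erg stood at 0.0903 to 0.326 RPKM, which carries the limit given above.

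**Figure D2:**
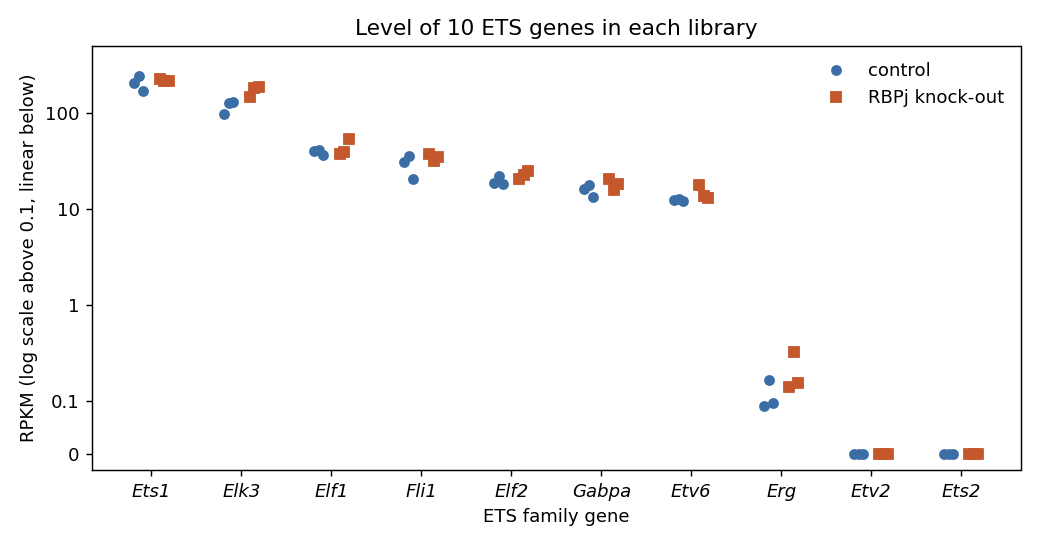
RPKM of the 10 ETS genes in each library, on an axis that is logarithmic above 0.1 and linear below, ordered by mean level. Circles are control and squares RBPj knock-out libraries. Ets1 and Elk3 lie near or above 100 RPKM, 5 genes between 10 and 100 RPKM, Erg below 1 RPKM, and Etv2 and Ets2 at 0.

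Within the family as a whole, 26 ETS genes were looked up in the table. Their RPKM values summed to 530 to 628 in the control and 610 to 661 in the knock-out libraries. Ets1 and Elk3 together held 49.8%, 58.8% and 56.7% of this sum in the controls and 56.6%, 65.3% and 62.4% in the knock-outs. The myeloid gene Spi1 ranked 3 in the family by mean share. It held 18.1%, 5.84% and 8.47% in the controls and 8.40%, 1.75% and 2.49% in the knock-outs. The part of other cells in these shares was not tested. The sum leaves out what Erg, Ets2, Ehf, which is also listed on an alternate contig, and Spdef, which lies in another stretch shared with one, would add, so the shares hold for the measured genes.

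The comparison of the groups asks whether loss of endothelial RBPj changes the expression of these factors in fibrotic SECs. By edgeR's quasi-likelihood test, 0 of the 8 tested genes passed an adjusted p of 0.05 over all genes, where 0.195% of all tested genes did (30 of 15404, with 0.104% higher and 0.0909% lower). At an unadjusted p under 0.05, 1 gene was higher (Elk3) and 0 were lower, against 9.39% and 8.13% of all tested genes. DESeq2 and limma-voom also called 0 of the 8 at the adjusted threshold. Of all genes with an adjusted p, DESeq2 called 3.61% higher and 2.7% lower, and limma-voom 2.05% higher and 1.44% lower. At an unadjusted p under 0.05, each of these tools gave 1 of the 8 higher and 0 lower. Over all 15404 genes, DESeq2 gave 1326 higher and 1391 lower at that level, and limma-voom 1909 higher and 2033 lower. All 8 fitted log2 fold changes were above 0 (median 0.13), against 46.2% of all tested genes (median -0.03), but those of Fli1, Ets1 and Elf1 changed sign in at least 1 alternative analysis. The 8 include Erg, whose counts could not be read as levels. Knock-out and control libraries did not overlap for 1 of the 8 genes (Elk3, higher), where 24.9% of all tested genes did not overlap.

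**Figure D3:**
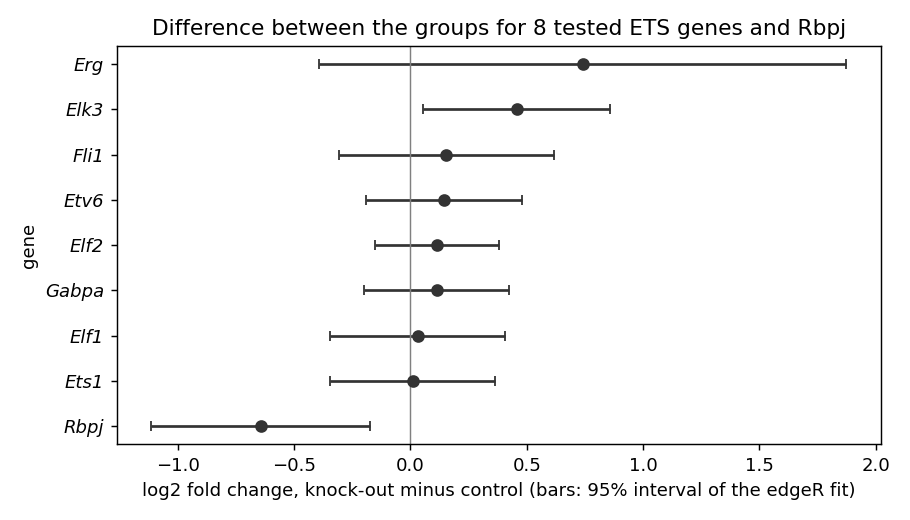
Log2 fold change of knock-out minus control SECs from the edgeR fit, with its 95% interval, for the 8 tested ETS genes and Rbpj. The intervals of Ets1, Elf1, Elf2, Etv6, Gabpa, Fli1 and Erg include 0, while those of Elk3 (0.06 to 0.86) and Rbpj (-1.11 to -0.17) do not. No adjusted p was under 0.05.

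Among the activators, Ets1 (chromosome 9, 32636210 to 32757820) was at 1226, 1236 and 962 normalized CPM in the controls and at 1176, 1170 and 1100 in the knock-outs. Control replicate 3 was the lowest library and control replicate 2 the highest, so the groups overlapped completely. The log2 fold change was 0.01 ± 0.15 (SE), with a 95% interval of the ratio from 0.787 to 1.29 (edgeR adjusted p = 0.979). Fli1, which lies beside Ets1 (32422204 to 32543427) and is also a regulator of megakaryocytes, was at 145, 144 and 91.7 normalized CPM in the controls and 151, 134 and 139 in the knock-outs. The groups overlapped again, with 1 low library, control replicate 3. Its log2 fold change of 0.16 ± 0.19 (SE, edgeR adjusted p = 0.7) became -0.035 without control replicate 3, and that of Ets1 became -0.10. Control replicate 3 also had the lowest summed level of sinusoidal markers and the highest of stellate markers, as given above, and their part in these values was not tested. Ets1 and Fli1 are also expressed in T cells. The 12 T and NK cell markers summed to 23.9 to 53.2 normalized CPM in control and 24.6 to 33.6 in knock-out libraries, with Cd3e at 1.28 to 5.12 and 1.55 to 3.03 and Cd2 at 0 in all 6. Lck of this list is on an alternate contig with 1 count and cannot be read. The highest sum, 53.2, was in control replicate 3, where Fli1 was at 91.7. The part of T cells in the levels of Ets1 and Fli1 was not tested. Of 7 platelet and megakaryocyte markers, Pf4, Gp1bb and Ppbp were listed at 0 in all libraries and each of these lies on an alternate contig or in a stretch shared with one. Itga2b, the remaining abundant one, was at 13.8 to 21.7 in control and 31.0 to 157 normalized CPM in knock-out libraries.

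Erg had a log2 fold change of 0.74 ± 0.47 (SE, edgeR adjusted p = 0.453) on its 29 control and 55 knock-out counts. Knock-out replicate 2 held 30 of the 55, and the value was 0.21 without it. The 95% interval of the ratio, 0.762 to 3.67, was the widest among the 8 genes.

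Elk3, a repressor of the ternary complex factor group that acts with serum response factor and becomes an activator when ERK phosphorylates it, was the one member whose groups did not overlap. It lies on chromosome 10 from 93247415 to 93311167, on the minus strand. Its level was 454, 516 and 584 normalized CPM in the controls and 591, 784 and 759 in the knock-outs. Control replicate 3 and knock-out replicate 1 nearly touched. The mean was 518 ± 64.8 against 711 ± 105 normalized CPM (SD, n = 3 each), and the fitted ratio was 1.37 with a 95% interval from 1.04 to 1.82 (log2 fold change 0.46 ± 0.17 SE). The unadjusted p was 0.0315 and the edgeR adjusted p was 0.24. The adjusted p was 0.13 in DESeq2 and 0.0745 in limma-voom with sample weights, and it ran from 0.0745 to 0.509 over all 13 alternative analyses, in each of which Elk3 stayed higher in the knock-out. Replicate 1 was the lowest library for Elk3 in each group, and control replicate 1 was the lowest of all. In each group, replicate 1 also had the highest sum of neutrophil and monocyte markers (15566 in control, 3517 normalized CPM in knock-out). Its sum of stellate markers was the lowest of each group (2033 and 610 normalized CPM). That stellate sum was lower in every knock-out library than in every control, whereas Elk3 was higher. The part of other cells in the level of Elk3 was not tested. Without control replicate 1 the log2 fold change was 0.37. Cdk17 overlaps the end of Elk3 by 3274 bases on the other strand and had 7481 counts against 42408 of Elk3 over the 6 libraries. Strand use in counting is not given, so their reads in that part cannot be told apart.

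**Figure D4:**
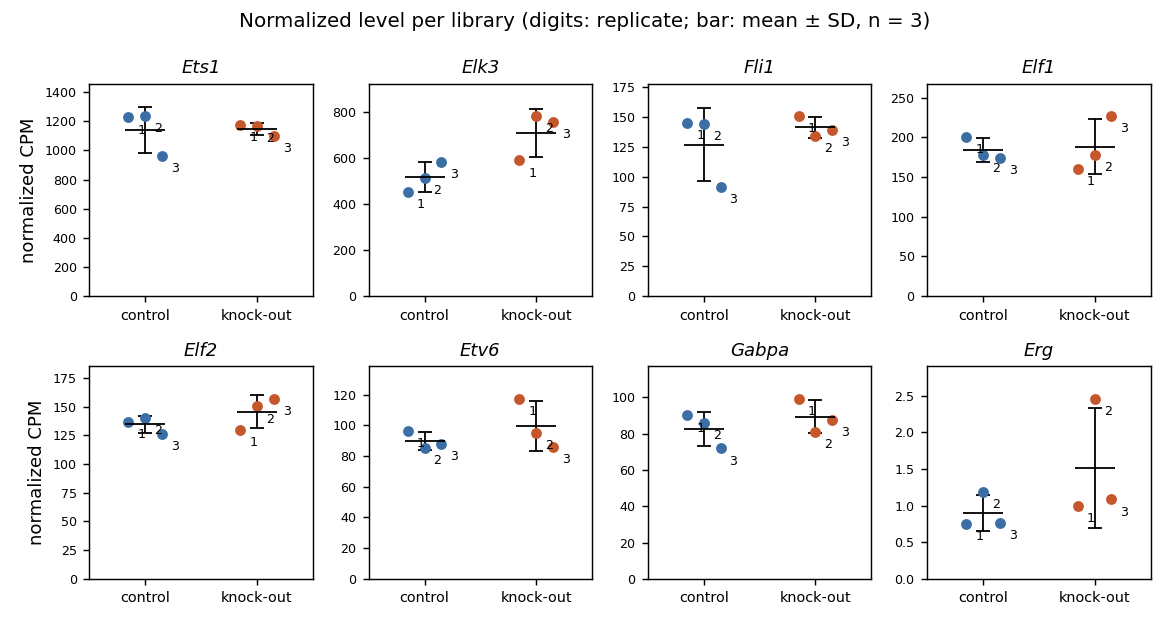
Normalized CPM of 8 ETS genes in each library, with the replicate number beside each point and the mean ± SD of 3 libraries as bars, on axes that start at 0. The 3 knock-out libraries lie above the 3 controls for Elk3 alone. Control replicate 3 is the low point of Ets1, Fli1, Gabpa and Elf2.

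The window of 250 bases before the RefSeq start of Elk3 is shown because Elk3 was the member with separate groups, beside the windows of Elf1 and Elf2, whose groups overlapped. They are written 5′ to 3′ on the strand of the gene, with every GGAA, or TTCC for the other strand, in capitals (RefSeq, GRCm38.p6).
Elk3, chr10:93311160-93311409, minus strand: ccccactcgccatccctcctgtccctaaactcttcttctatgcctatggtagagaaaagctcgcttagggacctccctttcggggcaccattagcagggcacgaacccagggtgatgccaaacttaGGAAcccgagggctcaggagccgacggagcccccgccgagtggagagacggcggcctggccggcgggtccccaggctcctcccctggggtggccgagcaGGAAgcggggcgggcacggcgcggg
Elf1, chr14:79480944-79481193, plus strand: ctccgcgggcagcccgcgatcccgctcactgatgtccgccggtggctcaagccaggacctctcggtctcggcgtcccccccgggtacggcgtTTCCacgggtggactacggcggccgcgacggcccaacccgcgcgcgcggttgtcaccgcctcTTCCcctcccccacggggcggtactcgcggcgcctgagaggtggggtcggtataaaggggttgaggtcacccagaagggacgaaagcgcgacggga
Elf2, chr3:51340645-51340894, minus strand: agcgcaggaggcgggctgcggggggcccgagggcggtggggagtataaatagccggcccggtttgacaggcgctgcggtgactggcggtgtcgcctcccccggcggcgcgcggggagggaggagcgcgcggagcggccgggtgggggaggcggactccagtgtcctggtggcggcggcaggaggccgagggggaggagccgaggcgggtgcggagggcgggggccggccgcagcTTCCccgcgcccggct
These windows of Elk3 and Elf1 held 2 such cores each and that of Elf2 held 1, where the median over 32841 mouse windows of this length was 3 and 93.5% held at least 1. The other windows of Elf1 and Elf2, inside the genes, differed and held 0 cores for Elf1 (79515424 to 79515673) and 6 for Elf2 (51277515 to 51277764). The longer ETS site CCGGAAGT (or ACTTCCGG) was in none of these windows and in 2.88% of all. The core bound by RBPJ, TGGGAA (or TTCCCA), which can share its last letters with an ETS core, was in none of the windows shown, in 2 of 12 windows of the 8 members with an entry (Erg and Etv6, 1 each) and in 21.6% of all windows. A match is only a match of letters.

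Etv6, a repressor known for its role in blood stem cells, was at 96.4, 85.3 and 87.9 normalized CPM in the controls and 117, 95.03 and 85.9 in the knock-outs. Knock-out replicate 1 stood above the other 5 libraries, which overlapped. The log2 fold change was 0.15 ± 0.14 (SE, edgeR adjusted p = 0.613), and it was 0.021 without knock-out replicate 1. Elf1 was at 201, 177 and 174 normalized CPM in the controls and 160, 178 and 227 in the knock-outs, so that the knock-out libraries held both the lowest and the highest value (edgeR adjusted p = 0.936, log2 fold change 0.03 ± 0.16 SE, and -0.11 without knock-out replicate 3). The row named Elf1 has the coordinates of Elf1 on chromosome 14 (79481194 to 79582491), while its gene link is that of the ephrin gene Efna2, which once bore the same name. Efna2 has its own row on chromosome 10, with 9 to 38 counts per library. Elf2 was at 137, 140 and 126 normalized CPM in the controls and 130, 150 and 157 in the knock-outs, with overlapping groups (edgeR adjusted p = 0.618, log2 fold change 0.11 ± 0.11 SE). Its interval was the narrowest of the 8, a ratio of 0.900 to 1.30.

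Gabpa (chromosome 16, 84834925 to 84863783, outside the stretch around Erg) was at 90.1, 85.9 and 71.9 normalized CPM in the controls and 99.2, 81.2 and 87.8 in the knock-outs. The groups overlapped, and control replicate 3 was the lowest library (edgeR adjusted p = 0.675, log2 fold change 0.11 ± 0.13 SE). The start of Gabpa overlaps Atp5j on the other strand by 724 bases, and Atp5j had 2528 counts against 5838 of Gabpa. The genes of its partner subunits were tested too, and Gabpb1 was at 40.5 ± 6.43 against 47.1 ± 5.50 and Gabpb2 at 86.8 ± 6.63 against 87.9 ± 0.782 normalized CPM.

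Of 16 other ETS genes, 12 were tested and 0 passed in edgeR, DESeq2 or limma-voom. Over all genes, 0.195% passed in edgeR. DESeq2 called 3.61% higher and 2.7% lower, and limma-voom 2.05% and 1.44%. In edgeR 0 of the 12 were under an unadjusted p of 0.05, against 9.39% of all tested genes higher and 8.13% lower. The median log2 fold change of the 12 was -0.059. The smallest p-values were those of Elf4, a factor of lymphocyte quiescence (73.8 ± 8.70 against 54.9 ± 14.3 normalized CPM, edgeR adjusted p = 0.329), and of the repressor Etv3 (98.3 ± 7.26 against 85.9 ± 6.09 normalized CPM, edgeR adjusted p = 0.378). Spi1, which encodes the myeloid factor PU.1, varied widely between libraries and was named after its values were seen. It was at 234, 67.1 and 91.0 normalized CPM in the controls and at 102, 20.8 and 29.4 in the knock-outs (log2 fold change -1.36, edgeR adjusted p = 0.404). The groups overlapped, and replicate 1 was the highest library of each. Replicate 1 of each group also had the highest sum of neutrophil and monocyte markers in its group, 15566 and 3517 normalized CPM. The 11 macrophage markers summed to 1306, 2587 and 4032 normalized CPM in the controls and 2684, 650 and 967 in the knock-outs. None of these 8 neutrophil and monocyte or 11 macrophage markers was at 0 in all libraries, and their part in the level of Spi1 was not tested.

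Genes that work with or under ETS factors were read from lists, chosen with earlier results of these data known. Of 17 tested partner and cofactor genes, 0 passed in edgeR, DESeq2 or limma-voom and 0 were under an unadjusted p of 0.05 in edgeR (median log2 fold change 0.15). The forkhead gene Foxc2, whose protein binds next to ETS factors at endothelial enhancers, was at 4.29 ± 2.31 against 2.17 ± 0.200 normalized CPM, and Runx1, a blood stem cell factor, at 18.9 ± 1.98 against 11.8 ± 5.99 normalized CPM. Of 25 tested endothelial genes with known ETS sites, 0 passed in edgeR, 7 were higher and 4 lower at an unadjusted p under 0.05 (9.39% and 8.13% of all tested genes), and the median was 0.09. The groups did not overlap for 8 that were higher and 3 that were lower, against 13.2% and 11.7% of all tested genes. DESeq2 called 3 higher and 1 lower of the 25, against 3.61% and 2.7% of all genes, and limma-voom called 1 higher, against 2.05%. Icam2, an adhesion molecule gene that Erg is known to activate in human endothelial cells, was at 135, 146 and 133 normalized CPM in the controls and 206, 215 and 209 in the knock-outs, a clear gap between groups. Its log2 fold change was 0.61 ± 0.09 (SE), with an adjusted p of 0.0638 in edgeR, 6.61e-07 in DESeq2 and 0.0276 in limma-voom, and a range over the alternatives from 6.61e-07 to 0.264. Sox17, an arterial transcription factor gene, was at 151, 138 and 140 against 106, 102 and 115 normalized CPM, again apart (log2 fold change -0.41 ± 0.09 SE, adjusted p of 0.132 in edgeR and 0.0147 in DESeq2, with a range over the alternatives up to 0.382). Notch4 and Cldn5 of this list were listed at 0, and Notch4 is listed on an alternate contig. Cldn5 is listed on chromosome 16 (18776847 to 18778262), close to a stretch given to another alternate contig (18780447 to 18811972). The cause of its 0 was not tested.

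Outputs of ERK, the kinase that phosphorylates Ets1, Ets2 and Elk3, were mixed. Of 15 tested genes, 0 passed in edgeR, 3 were higher and 1 lower at an unadjusted p under 0.05 (9.39% and 8.13% of all tested genes), and the median log2 fold change was -0.03. DESeq2 called 3 higher and limma-voom 2 higher, against 3.61% and 2.05% of all genes. Spred1, an inhibitor of Ras signalling, was at 88.6, 85.2 and 93.9 normalized CPM in the controls and 127, 114 and 124 in the knock-outs, without overlap (log2 fold change 0.45 ± 0.09 SE, adjusted p of 0.112 in edgeR, 0.00727 in DESeq2 and 0.0464 in limma-voom, range over the alternatives up to 0.349). Its paralog Spred3 was at 11.3, 9.71 and 12.8 against 27.7, 17.9 and 17.2 normalized CPM, also apart, with an adjusted p of 0.151 in edgeR and 0.0330 in DESeq2 (range over the alternatives up to 0.337). Of 13 tested targets of serum response factor and its ternary complex partners, 0 passed in edgeR, DESeq2 or limma-voom, 2 were higher and 0 lower at an unadjusted p under 0.05 in edgeR, and the median was 0.13. Nr4a1, an immediate early nuclear receptor gene, was at 127 ± 26.4 against 197 ± 47.0 normalized CPM and the AP-1 gene Junb at 1734 ± 238 against 2281 ± 186 normalized CPM. Of 15 tested GABP target genes, 0 passed in edgeR, DESeq2 or limma-voom, 1 was higher and 0 lower at an unadjusted p under 0.05 in edgeR, and the median was 0.02. The 1 higher gene was Hcfc1, whose own protein binds GABP, at 164 ± 16.6 against 213 ± 15.3 normalized CPM. Cox6b1, a subunit of cytochrome c oxidase, was at 49.0 ± 3.82 against 57.2 ± 4.18 normalized CPM.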

How the data were processed

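Reads were demultiplexed with bcl2fastq and aligned to mm10 with TopHat2 version 2.0.13, per the submitters' processing notes. How reads were counted (program, annotation, strand, multiple alignments) is not given in the sources used here. Raw counts per gene, as whole numbers, stand in the deposited table beside RPKM values that the authors derived from them. For 100% of rows with a count, RPKM equalled the count divided by gene length and library total within 0.1%. The gene lengths (other values of the deposited table) were used for that check. Titles gave the group and number of each sample. Whether replicates were separate mice is not stated in the labels, so p-values measure only the spread between these samples.

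Counts were tested with edgeR 4.0.16 under R 4.3.3 (TMM, filterByExpr, robust glmQLFit, two-sided glmQLFTest on group), with Benjamini-Hochberg adjustment over 15404 genes with a threshold of 0.05. The F statistic and the fold change gave the SE and 95% intervals. Normalized CPM used the TMM-scaled library sizes. Alternatives were RLE size factors, DESeq2 1.42.0, limma-voom (limma 3.58.1) with sample quality weights, no filter, a stricter filter (at least 10 counts in 3 libraries and an average log2 CPM of 1), a replicate block, the 18S row left out, and each library left out in turn. The fit was tested on simulated counts. The members and the 16 gene lists were chosen with earlier results of these data known. Of 200 list entries, 198 matched by symbol and 2 by a synonym, and 1 repeated a gene of its list. From each list other than the markers, up to 4 tested genes past the threshold were to be named, or the 2 with the smallest p if there were none. Cdh5, Stab2, Gabpb1, Gabpb2, Spi1, the single marker genes and the genes listed at 0 were named outside this rule. Promoter windows were matched by symbol (8 of 10 members).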

Additional observations from a re-analysis of the deposited data

How the results depend on the processing

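The count of ETS genes past the threshold stayed at 0 under all 13 alternatives. The count over all genes did not hold. It was 30 in edgeR, 55 with RLE size factors, 176 without a filter, 73 with the stricter filter, 538 in limma-voom and 947 in DESeq2, and from 0 to 41 with 1 library left out (41 without knock-out replicate 1, 0 without any other). The cause was not tested. With the replicate block it was 3. Same-numbered libraries correlated in their deviations at 0.194, 0.0313 and 0.419 (numbers 1, 2 and 3), and libraries of different number at -0.458 to 0.200. Whether samples of the same number belong together is not given in the labels. The main fit did not pair them, and the block left the ETS count at 0. With 1 library left out, the log2 fold change ran from -0.035 to 0.28 for Fli1, -0.10 to 0.093 for Ets1 and -0.11 to 0.15 for Elf1, and that of Ets1 was -0.030 in limma-voom. Leaving out control replicate 3 reversed Fli1, Ets1 and Elf1, leaving out knock-out replicate 2 reversed Ets1 (-0.0040), and leaving out knock-out replicate 3 reversed Elf1. The other 5 tested ETS genes kept their direction under every alternative that tested them. The 95% intervals of the 7 well-counted genes all hold the ratios between 1.04 and 1.29, so for none of them does the interval exclude a change of that size.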
